A study of Mus musculus with 6 samples.

Results

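Myosin light chain genes (6) and myosin light chain kinase genes (4) were followed in mouse soleus. They were chosen by name as the sarcomeric light chains and the kinase family, and all 10 were found among the 43074 gene names that each library listed. The light chains were Mylpf and Myl2 (regulatory, fast and slow) and Myl1, Myl3, Myl6b and Myl4 (essential, fast, slow, slow and embryonic). The kinases were Mylk2, Mylk4, Mylk and Mylk3. The series compared 3 libraries labelled WT, called control in the series text, with 3 labelled StarD7 mKO, a muscle knockout of the gene for the lipid transfer protein StarD7. Soleus, a calf muscle, holds slow fibres beside fast ones. The driver of the deletion, any allele that both groups carry, and the strain, age and sex of the mice are not given in the sources used here. No label names the animal behind a library, and p-values therefore measure the spread between these samples, which may in part be technical.

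Each sarcomeric myosin is built from heavy chains that each bind an essential and a regulatory light chain at the neck that turns a small movement of the motor into a stroke. Slow and fast fibres use different light chain genes, and muscle under development uses others. A calmodulin-dependent light chain kinase adds a phosphate to the regulatory chain, which in skeletal muscle raises force at a given calcium level, and myosin phosphatase takes it off again.

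Values are in TPM, the relative abundance of transcripts per unit of gene length on a fixed total per library. Levels of different genes can be compared on this scale only as far as the length used for each gene holds. Reads could be worked back with exon lengths such as 1950 bases for Myl2 and 1062 bases for Mylpf, but not for Mylk4. Levels, shares and ratios set between genes below rest on such lengths. Reads worked back from the TPM came to between 42928774 and 51287999 per library. Stard7 itself had 21.8, 21.3 and 34.6 TPM in mKO replicates 1, 2 and 3 and 87.5 to 95.4 TPM in the WT libraries. Its log2 difference was −1.83, and −2.05 without mKO replicate 3. The skeletal actin gene Acta1 stood between 37200 and 40601 TPM in WT and between 33503 and 35547 TPM in mKO, without overlap. The slow heavy chain Myh7 stood between 2688 and 3532 TPM in WT and between 2889 and 4281 TPM in mKO. Mitochondrially encoded genes took 42.1% to 45.1% of TPM in WT and 46.8% to 48.9% in mKO, and TPM of each library add up to the same total. Summed skeletal muscle markers (11 genes) were at 85521 to 92489 TPM in WT and 73996 to 75387 TPM in mKO, and summed endothelial markers (5 genes) at 193.1 to 199.2 and 186.8 to 188.7 TPM. The part of these shifts in the results below was not tested, except that each gene was also fitted with mitochondrially encoded genes left out. The summed macrophage, fibroblast, adipocyte and Schwann cell markers overlapped between genotypes. The replicate 3 library of mKO held more transcripts of fast myosin than the others of its group, with Myh1, the type IIx heavy chain, at 635 TPM against 113 and 82.7 TPM.

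Mylk4 showed the largest difference between genotypes among the 10 genes, and Mylpf the largest among the abundant light chains. The 250 bases before the start of each are shown for that reason. On the log2 scale the rare light chain Myl4 differed by more than Mylpf (0.64 against −0.55), and neither passed the test given below. Both come from RefSeq (build GRCm38.p6, an older build than the GRCm39 of the files), and 9 of the 10 members, all but Mylk2, had an entry. They are written 5′ to 3′ on the strand of the gene, with matches to 3 motifs of muscle promoters in capitals: the E-box, CANNTG, bound by the MyoD family, the MEF2 consensus and the CArG box bound by SRF. Both strands were searched. The Mylk4 window is chr13:32783965-32784214 on the minus strand, and the Mylpf window is chr7:127211358-127211607 on the plus strand.
Mylk4: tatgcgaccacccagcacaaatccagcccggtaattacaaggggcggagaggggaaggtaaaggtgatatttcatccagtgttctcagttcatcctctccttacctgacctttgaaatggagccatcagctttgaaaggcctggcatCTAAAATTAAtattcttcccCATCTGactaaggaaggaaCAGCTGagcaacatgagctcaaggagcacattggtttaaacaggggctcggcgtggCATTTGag
Mylpf: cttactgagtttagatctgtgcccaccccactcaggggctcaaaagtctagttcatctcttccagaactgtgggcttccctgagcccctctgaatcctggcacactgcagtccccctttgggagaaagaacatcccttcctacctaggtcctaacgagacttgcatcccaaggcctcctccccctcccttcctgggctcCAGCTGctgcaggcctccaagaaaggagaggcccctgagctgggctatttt
In the Mylk4 window the capitals mark, from left to right, a MEF2 match that begins 103 bases before the start and E-boxes that begin 83, 64 and 8 bases before it. The start used by RefSeq lies 2248 bases from the nearest start of a coding Mylk4 transcript in GENCODE M21, and 10 bases from that of a non-coding one. In the Mylpf window they mark an E-box that begins 51 bases before the start, which is also a start of a coding transcript in GENCODE. No motif overlapped another in these windows. An E-box was found in at least 1 window of 7 of the 9 members, and 66.2% of all 32851 windows held one. The first count is by member and the second by window, and Myl2 and Mylk3 had more than 1 window. Myl2 is among the 7, although the starts of its windows lie 8227 and 7762 bases from the nearest Myl2 start in GENCODE. A MEF2 match was found in 1 member, Mylk4, against 2.9% of all windows, and a CArG box in 1, Myl3, against 1.5%. A match is a description of the letters and not of binding, which was not measured.

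All 10 members were above 1 TPM in each of the 6 libraries, so all passed the filter on low values. Their levels spanned 3 orders of magnitude in WT, from Myl3 at 4946 TPM to Mylk3 at 1.78 TPM. In mKO 2 genes had fallen relative to WT in the test over all genes, the kinases Mylk4 and Mylk2, and none had risen. The test was limma on log2(TPM + 1), with p-values adjusted by Benjamini-Hochberg over the 12301 genes tested and a threshold of 0.05. Over all genes tested, 0.520% passed it, with 0.423% lower and 0.0976% higher in mKO. The WT and mKO values did not overlap for 4 members, Mylpf, Myl1, Mylk2 and Mylk4, each lower in mKO. Of all genes tested, 16.0% did not overlap, 10.3% being lower and 5.67% higher in mKO. The median log2 difference was −0.08 over the 10 members and −0.01 over all genes tested.

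**Figure D1:**
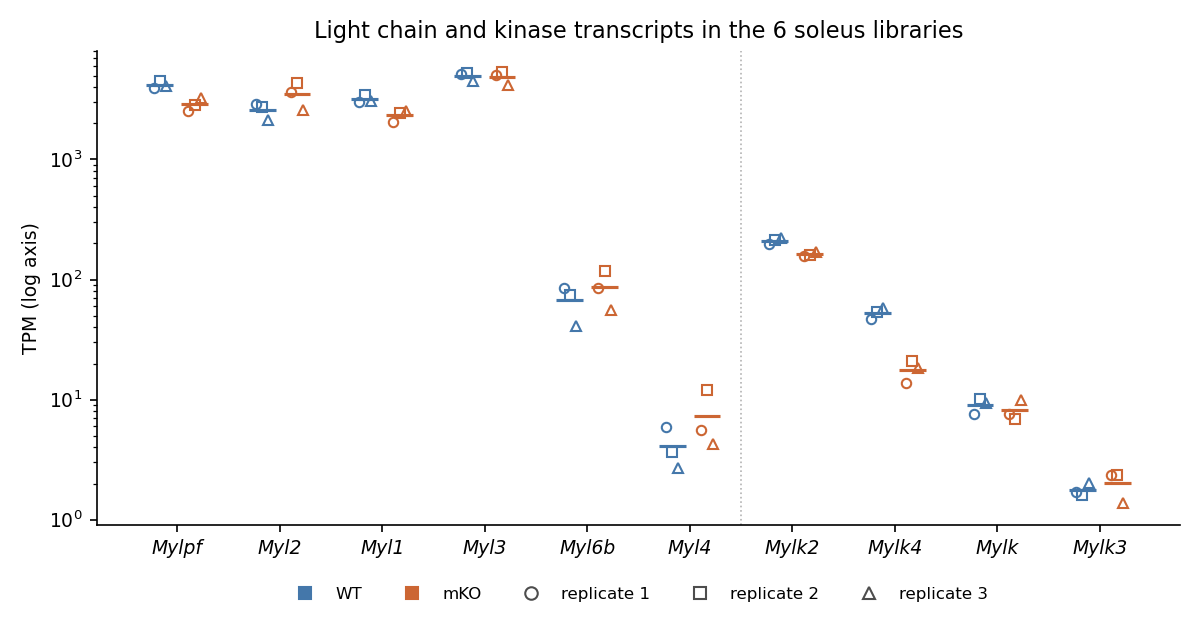
TPM of each gene in the 6 libraries, on a log axis. Points are libraries (shape gives the replicate number), short lines are means of 3, blue is WT and orange is mKO, and the dotted line parts light chains from kinases. Mylpf, Myl1, Mylk2 and Mylk4 are lower in every mKO library than in any WT library.

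**Figure D2:**
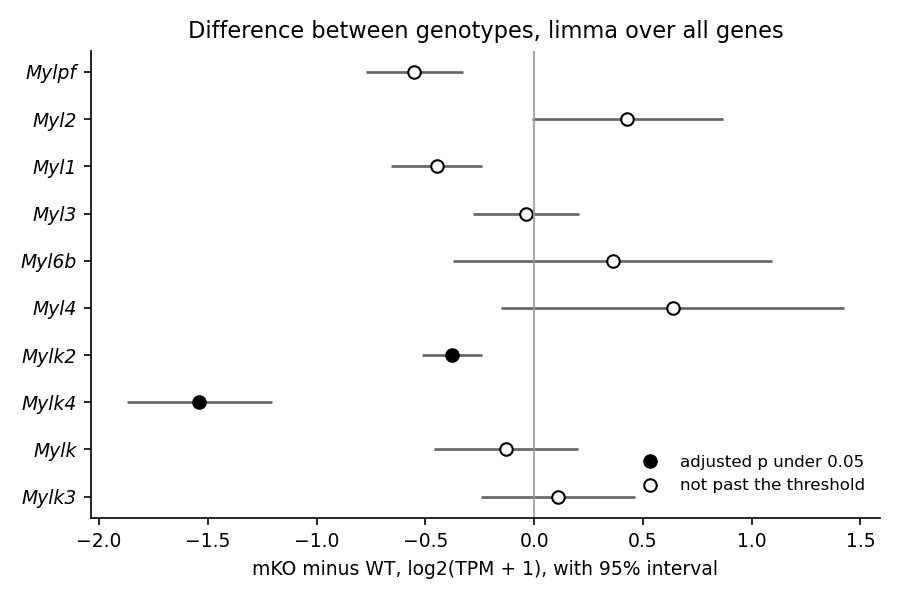
Difference between genotypes for each gene (mKO minus WT, on log2 of TPM + 1), with its 95% interval from limma. Filled points passed an adjusted p of 0.05: Mylk4 at −1.54 and Mylk2 at −0.38.

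Of the regulatory light chains, the fast chain was lower in mKO and the slow chain was higher in mean, but neither passed the test. Mylpf, the fast skeletal regulatory chain, was at 3951, 4528 and 4127 TPM in WT replicates 1, 2 and 3. In mKO it was at 2547, 2823 and 3269 TPM. Every mKO library lay below every WT library, and mKO replicate 3 was the nearest to WT. Means were 4202 ± 296 TPM in WT and 2880 ± 364 TPM in mKO (SD, n = 3 each), the latter being 68.5% of the former. On the log2 scale it differed by −0.55 (SE 0.10, 95% interval −0.77 to −0.33), with a limma adjusted p of 0.0622. It passed the threshold without mKO replicate 3 (−0.65, adjusted p = 0.0192, limma) and by limma-voom on recovered reads (−0.50, adjusted p = 0.0453), and in no other of 14 settings.

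Myl2, the regulatory chain of slow fibres and of the heart's ventricle, was at 2888, 2713 and 2139 TPM in WT. In mKO it was at 3653, 4346 and 2569 TPM. Replicates 1 and 2 of mKO lay above all WT libraries, while mKO replicate 3 lay within the WT range. The means were 2580 ± 392 TPM in WT and 3523 ± 896 TPM in mKO (SD, n = 3 each), with a log2 difference of 0.43 (SE 0.19, 95% interval −0.01 to 0.87, limma adjusted p = 0.474). With a library left out it ran from 0.26 (without mKO replicate 2, limma adjusted p = 0.671) to 0.64 (without mKO replicate 3, limma adjusted p = 0.116).

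Set against each other, Myl2 made up 42.2%, 37.5% and 34.1% of the regulatory pair in the WT libraries. In mKO it made up 58.9%, 60.6% and 44.0%. The groups did not overlap, although WT replicate 1 and mKO replicate 3 lay close together. The mean WT share was 37.9% ± 4.07 and the mean mKO share 54.5% ± 9.14 (SD, n = 3 each), which is 16.6 points higher. The pair summed to 6782 ± 490 TPM in WT libraries and to 6402 ± 689 TPM in mKO libraries, and those sums overlapped. By TPM, the most abundant regulatory chain was Mylpf in all WT libraries and in mKO replicate 3, and Myl2 in mKO replicates 1 and 2. This order depends on the gene lengths used. In recovered reads, which are not divided by length, Myl2 was above Mylpf in every library but WT replicate 3 (90934 against 95550 reads).

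Of the essential light chains, the fast one was lower in every mKO library than in any WT library without passing the test, and the others overlapped between genotypes. Myl1 encodes the fast essential chain in a long and a short form from separate promoters, which a value per gene adds together. It was at 3024, 3463 and 3063 TPM in WT and at 2054, 2432 and 2528 TPM in mKO. The groups did not overlap. Means were 3183 ± 243 TPM in WT and 2338 ± 251 TPM in mKO (SD, n = 3 each), the latter being 73.4% of the former, and the log2 difference was −0.45 (SE 0.09, 95% interval −0.66 to −0.24, limma adjusted p = 0.107). It did not pass the threshold in any of the 14 other settings, where it lay from −0.51 to −0.33.

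Myl3, the essential chain shared by slow fibres and the ventricle, was the most abundant member in both genotypes. It was at 5120, 5243 and 4476 TPM in WT and at 5044, 5324 and 4137 TPM in mKO. The groups covered nearly the same range, with replicate 3 the lowest in each. The log2 difference was −0.04 (SE 0.10, limma adjusted p = 0.941), with a 95% interval of −0.28 to 0.20. Its sign changed in 4 of 14 other settings.

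Myl6b, a second essential chain of slow muscle that is also made in non-muscle cells, was at 85.4, 75.0 and 41.3 TPM in WT. In mKO it was at 85.04, 118 and 56.3 TPM. The ranges overlapped widely, and the log2 difference was 0.36 (SE 0.32, 95% interval −0.37 to 1.09, limma adjusted p = 0.759). With a library left out the difference ran from 0.05 (without WT replicate 3) to 0.64 (without mKO replicate 3), and it was 0.11 without mKO replicate 2. Next to Myl3 this gene was minor, at 0.81% ± 0.25 of essential transcripts in WT libraries and 1.17% ± 0.33 in mKO libraries (SD, n = 3 each).

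Myl4, the essential chain of embryonic muscle and of the atrium, was the rarest light chain. It was at 5.88, 3.67 and 2.72 TPM in WT and at 5.61, 11.9 and 4.24 TPM in mKO. The highest value, in mKO replicate 2, was the only one outside the WT range. Its log2 difference was 0.64 (SE 0.34, 95% interval −0.15 to 1.42, limma adjusted p = 0.575). With a library left out it ran from 0.26 (without mKO replicate 2) to 0.91 (without mKO replicate 3). The atrial regulatory chain Myl7 was listed at 0 in 5 of the 6 libraries and at 0.0779 TPM in mKO replicate 2. The atrial hormone gene Nppa was listed at 0 in all 6. Both belong to a list of 9 cardiac markers and were singled out after their values were seen. Nppb, Tnni3 and Ryr2 of that list also stayed below 1 TPM in every library. Its 4 tested genes were present in every library. Sln ran from 37.6 to 133 TPM, Actc1 from 25.5 to 42.9, Myh6 from 6.61 to 10.3 and Tnnt2 from 1.72 to 4.64 TPM. Each of the 4 overlapped between genotypes with a difference above 0 (median 0.20), and none passed the threshold.

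Myh3, the embryonic heavy chain, was at 22.7, 15.7 and 8.02 TPM in WT and 21.6, 36.5 and 21.4 TPM in mKO (log2 difference 0.80, SE 0.34, limma adjusted p = 0.463). Without WT replicate 3 the difference was 0.42. The 6 libraries fell in the same order for Myh3 as for Myl4. Myh8, the neonatal heavy chain, went the other way, at 1.92 TPM in mean in WT and lower in every mKO library (log2 difference −0.35, SE 0.11, limma adjusted p = 0.306). Of 8 regeneration markers, Myh3 among them, 6 were tested and none passed the threshold, with a median difference of 0.25. All 8 summed to 29.6 to 56.9 TPM in WT libraries and to 47.4 to 78.6 TPM in mKO libraries. Myh3 and Myh8 were singled out, and the shared order of Myl4 and Myh3 was noticed, after their values were seen.

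Together, the slow genes Myl3 and Myl6b made up 63.2%, 60.5% and 59.6% of essential light chain transcripts in WT. In mKO they made up 71.4%, 69.0% and 62.3%. Replicate 3 of mKO lay within the WT range, so the groups overlapped, with means of 61.1% ± 1.89 and 67.6% ± 4.67 (SD, n = 3 each). The difference was 6.47 points. These shares are scores over the members and were given no test.

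**Figure D3:**
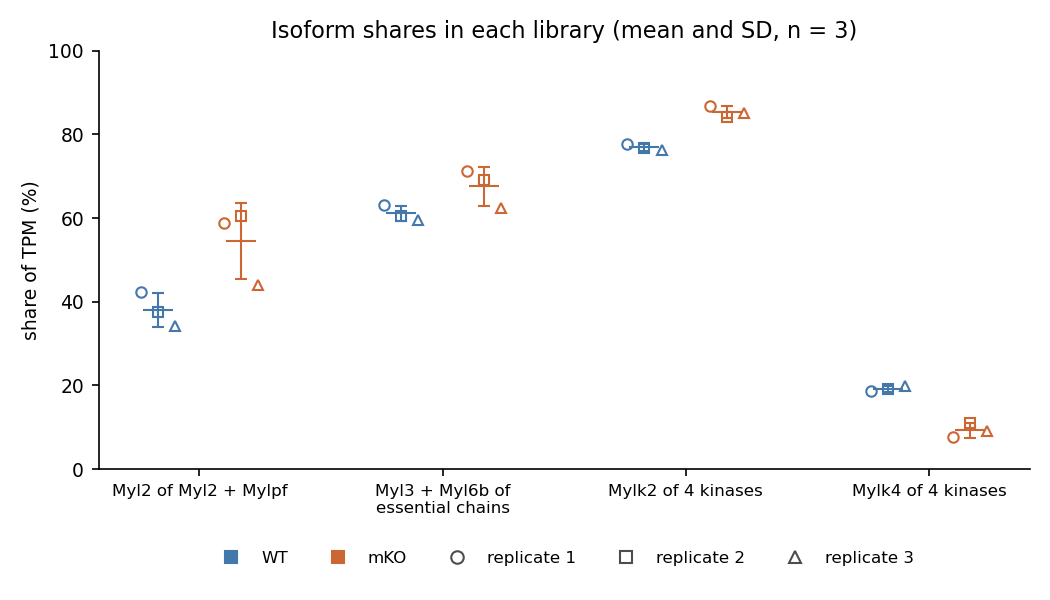
Share of TPM held by the named gene within its class in each library (points), with the mean and SD of 3 libraries per genotype. The shares of Myl2, Mylk2 and Mylk4 do not overlap between genotypes, and mKO replicate 3 has the lowest slow share of its group.

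The fast light chains were compared with the fast heavy chains, which they bind. Myh1, Myh2 and Myh4, the chains of types IIx, IIa and IIb, summed to 8168, 10229 and 9743 TPM in WT and to 4464, 4299 and 6309 TPM in mKO. The mean sum was 9380 ± 1077 TPM in WT libraries and 5024 ± 1116 TPM in mKO libraries (SD, n = 3 each), and the groups did not overlap. By gene, none passed the test. Mean Myh1 was 3008 TPM in WT and 277 TPM in mKO (limma adjusted p = 0.0515), and mean Myh4 406 and 8.98 TPM (0.0576), both without overlap. Myh4 was at only 53.9 TPM in WT replicate 1. Myh2, the most abundant of them, overlapped, at 5966 and 4738 TPM in mean (limma adjusted p = 0.527). Mylpf per fast heavy chain transcript was higher in mKO, at 0.571, 0.657 and 0.518, than in WT, at 0.484, 0.443 and 0.424. Myl2 per Myh7 shifted the same way, at 0.818, 0.834 and 0.796 in WT and at 0.881, 1.02 and 0.889 in mKO. Neither ratio overlapped between genotypes, and neither was given a test.

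Among the kinases, Mylk4 fell the most. Mylk4 is a member of the light chain kinase family expressed in striated muscle whose targets there are less well known. It was at 47.1, 53.3 and 57.9 TPM in WT and at 13.7, 21.05 and 18.3 TPM in mKO. The lowest WT library was more than 2-fold above the highest mKO library. Means were 52.8 ± 5.39 TPM in WT and 17.7 ± 3.69 TPM in mKO (SD, n = 3 each), so that 33.5% of the WT level was found in mKO. Its log2 difference was −1.54 (SE 0.14, 95% interval −1.87 to −1.21), with a limma adjusted p of 0.00699, and by p-value the gene ranked 10 of 12301. It held in 11 of the 13 other settings that tested it, and not when WT replicate 2 was left out (−1.53, limma adjusted p = 0.0787) or when genes were not filtered by level (limma adjusted p = 0.0882). With mitochondrially encoded genes left out it was −1.45 (limma adjusted p = 0.0162).

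Mylk2, the skeletal muscle light chain kinase, was the most abundant kinase of the family in every library. It was at 197, 214 and 222 TPM in WT and at 157, 160 and 169 TPM in mKO. The spread within each genotype was narrow and the groups did not overlap. Means were 211 ± 12.7 TPM in WT and 162 ± 6.06 TPM in mKO (SD, n = 3 each), or 76.8% of the WT level in mKO. The log2 difference was −0.38 (SE 0.06, 95% interval −0.51 to −0.24), with a limma adjusted p of 0.0482, just under the threshold. It held in 3 of 14 other settings, over which the limma adjusted p ran from 0.0454 to 0.264, and among single libraries it was kept only when mKO replicate 3 was left out. With mitochondrially encoded genes left out the difference was −0.26 (limma adjusted p = 0.137), while the median over all genes was 0.09 in place of −0.01.

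Mylk, the kinase of smooth muscle and non-muscle cells, was at 7.53, 10.05 and 9.42 TPM in WT and at 7.62, 6.91 and 9.999 TPM in mKO. The groups overlapped, and the log2 difference was −0.13 (SE 0.14, 95% interval −0.46 to 0.20, limma adjusted p = 0.815). With a library left out it ran from −0.27 (without mKO replicate 3) to −0.03 (without mKO replicate 2), with −0.24 without WT replicate 1 and −0.05 without WT replicate 2. The smooth muscle genes Acta2 and Myh11 were at 67.1 ± 3.33 and 19.8 ± 2.08 TPM in WT libraries and at 72.0 ± 14.7 and 20.2 ± 4.82 TPM in mKO libraries (SD, n = 3 each). Of the 10 smooth muscle markers, 6 had a difference below 0 and none passed the test. Smtn, another smooth muscle gene, named after its values were seen, was at 62.9, 63.1 and 58.2 TPM in WT and at 53.9, 47.7 and 53.8 TPM in mKO, without overlap (log2 difference −0.24, SE 0.07, limma adjusted p = 0.224). All 10 summed to 2679.1 to 2866.7 TPM in WT and to 2488.2 to 2609.2 TPM in mKO, without overlap. Des alone was at 2368 TPM in mean in WT and 2182 TPM in mKO. The 8 markers other than Des and Synm, which skeletal fibres also make and which were set aside after their values were seen, summed to 261.7 to 267.4 TPM in WT and 230.8 to 301.5 TPM in mKO, with overlap. Replicate 3 of mKO had the highest sum of these 8 markers and the highest Mylk of its group. In bulk tissue, fewer cells of a type and less RNA per cell cannot be told apart.

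Mylk3, the cardiac light chain kinase, was the rarest member, at 1.71, 1.62 and 2.01 TPM in WT and 2.36, 2.36 and 1.38 TPM in mKO. These values rested on 118 to 220 recovered reads per library, while each other member with recovered reads had at least 275. The log2 difference was 0.11 (SE 0.15, 95% interval −0.24 to 0.46, limma adjusted p = 0.86). It was 0.03 without mKO replicate 1 and also without mKO replicate 2, 0.07 without WT replicate 2, 0.17 without WT replicate 3 and 0.28 without mKO replicate 3.

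The make-up of the kinase family differed between genotypes without overlap. Mylk4 held 18.6%, 19.1% and 19.8% of the transcripts of the 4 kinases in WT and 7.59%, 11.0% and 9.20% in mKO. The share of Mylk2 was 76.9% ± 0.80 in WT libraries and 85.4% ± 1.43 in mKO libraries (SD, n = 3 each), or 8.45 points higher. There were 4.01 ± 0.17 Mylk2 transcripts per Mylk4 transcript in WT and 9.44 ± 1.93 in mKO. Mylk2 itself was lower in mKO, and Mylk4, in the same sum, was lower by a larger factor. These shares and this ratio draw on the same genes and are not separate observations. The 4 kinases summed to 275 ± 19.2 TPM in WT libraries and to 190 ± 8.78 TPM in mKO libraries, again without overlap, and none of these measures was given a test.

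**Figure D4:**
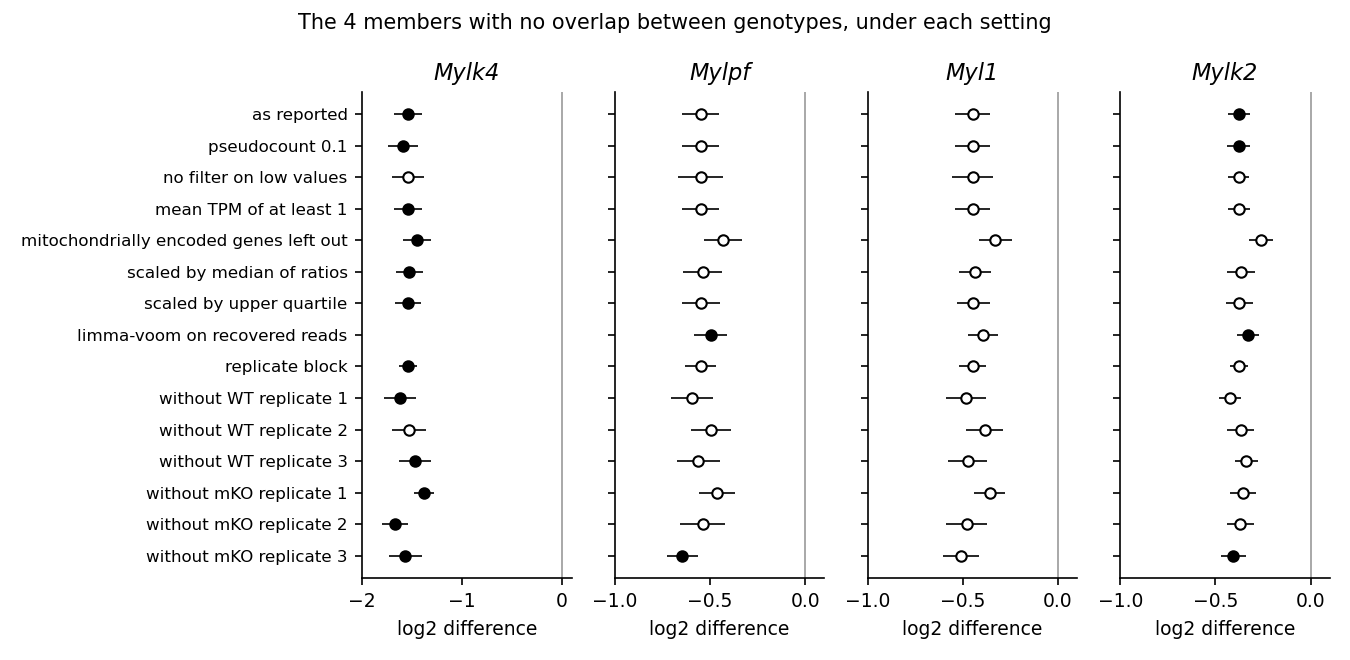
Log2 difference (mKO minus WT, ± SE) of the 4 members whose groups did not overlap, under each way of processing. Filled points passed an adjusted p of 0.05. All values lie below 0, and Mylk4 was not tested by limma-voom, since whole reads were not recovered for it.

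The other genes of light chain phosphorylation were given by 4 lists, of light chains outside the members, myosin phosphatase and its inhibitors, other kinases and calmodulin. Of 26 genes tested, 1 fell and none rose, where 0.423% of all genes tested were called lower and 0.0976% higher, with a median difference of −0.06 against −0.01 over all genes tested. The groups did not overlap for 4 of the 26, where 16.0% of all genes tested did not. The gene that fell was Ppp1r14c, which encodes an inhibitor of protein phosphatase 1 that acts once phosphorylated by protein kinase C. It was at 40.4, 42.2 and 39.9 TPM in WT and at 27.0, 29.6 and 25.6 TPM in mKO. The groups did not overlap. Its log2 difference was −0.56 (SE 0.07, 95% interval −0.71 to −0.41, limma adjusted p = 0.0197). It held in 9 of 14 other settings. It did not when genes were not filtered by level (limma adjusted p = 0.103) or when WT replicate 1 (0.0704), WT replicate 2 (0.161), WT replicate 3 (0.0767) or mKO replicate 1 (0.113) was left out.

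The 9 phosphatase genes tested had a median difference of −0.07. Ppp1r12b, the targeting subunit typical of striated muscle, was at 138 ± 11.5 TPM in WT (SD, n = 3) and differed by −0.04 (SE 0.07, limma adjusted p = 0.895), a sign that changed in 3 of 14 other settings. This gene, Ppp1r14b and Pak1 were singled out after their values were seen. Ppp1r14b, a related phosphatase inhibitor, did not overlap between genotypes either, at −0.12 (SE 0.06, limma adjusted p = 0.559).

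Of 9 other kinases tested, none passed. Dapk2, a calmodulin-dependent kinase that can phosphorylate regulatory light chains, was at 20.4, 18.0 and 17.2 TPM in WT and 24.4, 32.8 and 23.6 TPM in mKO. Every mKO library lay above every WT library, but the log2 difference of 0.50 (SE 0.13, 95% interval 0.21 to 0.79) had a limma adjusted p of 0.18. Pak1, a p21-activated kinase, was at 2.75 ± 0.40 TPM in WT libraries and 1.77 ± 0.03 TPM in mKO libraries without overlap (SD, n = 3 each, log2 difference −0.43, limma adjusted p = 0.165).

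None of the 3 calmodulin genes tested passed the threshold. Among them Calm2, which encodes the calcium sensor that switches the kinases on, differed by −0.10 (SE 0.07, limma adjusted p = 0.705). Of 5 other light chain genes tested, none passed. Myl12a, a regulatory chain of non-muscle myosin, was at 504, 421 and 405 TPM in WT and 492, 602 and 480 TPM in mKO. These ranges overlapped (log2 difference 0.24, SE 0.11, limma adjusted p = 0.486). Its level exceeded that of Mylk2 or Myl6b in every library.

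**Figure D5:**
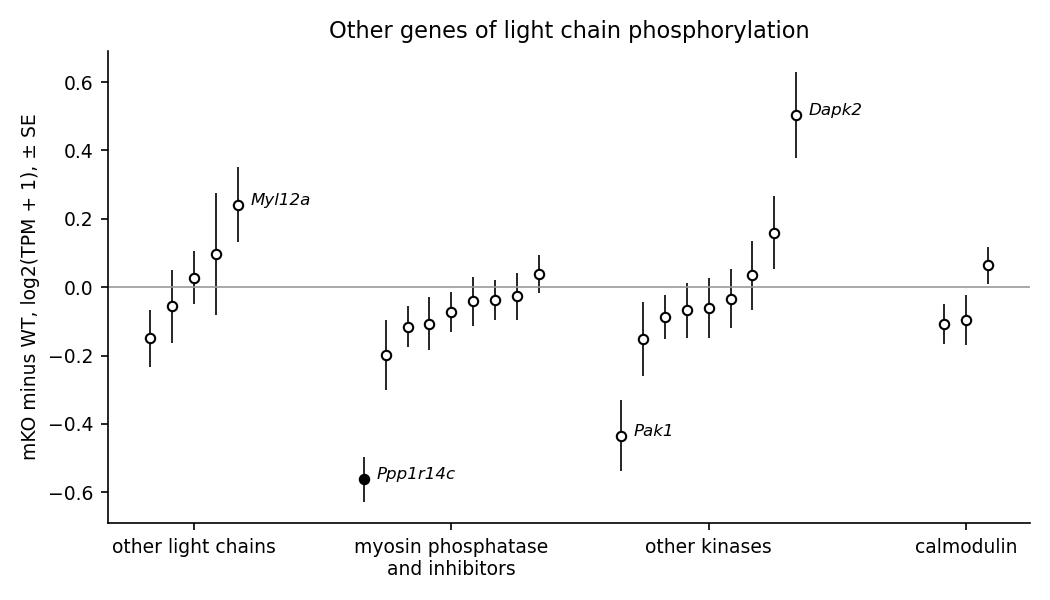
Log2 difference (mKO minus WT, ± SE) of the 26 tested genes of 4 lists, ordered by value within each list. The filled point, Ppp1r14c at −0.56, is the only one past an adjusted p of 0.05, and Dapk2 and Pak1 lie at 0.50 and −0.43.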

How the data were processed

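RNA of 6 soleus libraries (3 WT, 3 mKO) was selected for poly(A) and made into directional libraries, per the labels' protocols. For each library the authors deposited TPM by gene name. GRCm39 is the build named in the submitters' processing notes. Aligner, annotation and strand setting are not given in the sources used here. Genes on the opposite strand that overlap a member in GENCODE M21 averaged at most 1.31 TPM (Pth1r, over Myl3) where they were listed.

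A gene was tested if 3 or more libraries had it at 1 TPM or above. The test was limma 3.58.1 (R 4.3.3, eBayes with trend) on log2(TPM + 1), and the model held genotype alone. This scale understates changes of genes at low TPM. Intervals are 95% intervals from the fit. Reads were recovered as TPM times exon length (GENCODE M21) over a scale per library. They were whole, within 0.05 reads, for 93.12% of 22734 genes, and for all members but Mylk4. The test was also run on simulated data with known changes, and the outcome is not reported here. The members and lists were chosen with earlier results of these data known. Named genes were all members, called genes of the lists, some of the most abundant of each list and genes marked as singled out after their values were seen. Values of some genes of the lists are not reported here.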

Additional observations from a re-analysis of the deposited data

How the results depend on the processing

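Mylk4 stayed below 0 in the 13 other settings that tested it (−1.67 to −1.38), as did Mylpf (−0.65 to −0.43), Myl1 (−0.51 to −0.33) and Mylk2 (−0.43 to −0.26) in all 14. In all, 64 genes were called, 12 higher and 52 lower. With no filter on low values 6 were called (2 higher, 4 lower, over 24964 genes), without the mitochondrially encoded genes 41 (21 and 20), and on recovered reads, by limma-voom, 92 (35 and 57). Leaving out each library in turn gave 4 to 94 calls, 1 to 18 higher and 3 to 76 lower. WT replicates 1, 2 and 3 left out in turn gave 13, 4 and 12, and mKO replicates 1, 2 and 3 gave 13, 26 and 94. Of the members, 2 were called, both lower. With no filter 0 were. It was 1 with a mean TPM of at least 1, with mitochondrially encoded genes left out and with scaling by median of ratios or upper quartile, and 0 to 3 with a library left out, the 0 being without WT replicate 2. Some of these settings held fewer samples or tested more genes, and the cause of the changes in these counts was not tested. With a replicate block 21 genes were called (5 higher, 16 lower) and 1 member, Mylk2 then being at an adjusted p of 0.0676 (limma). The replicate numbers were not taken as pairs, since no label says that they pair animals. Deviations from the group means correlated across genes at 0.09, 0.05 and 0.13 between libraries of the same number. Each library did correlate best with its own number, which is only a hint from the data. Myl2, Myl3 and Myl6b were lowest in replicate 3 of both genotypes. With the block the SE of Myl2 was 0.09 in place of 0.19 (limma adjusted p = 0.175). That of Myl6b was 0.12 in place of 0.32 (limma adjusted p = 0.329). Myl3 was at 0.0805 without the mitochondrially encoded genes and at 0.0144 on recovered reads, and with a library left out it ran from −0.111 to 0.0707, above 0 without WT replicate 2 (0.00612) and mKO replicate 3. Ppp1r12b was at 0.0766 and 0.0108 in the first pair of settings and from −0.11 to 0.00512 with a library left out, above 0 without WT replicate 3. Without the mitochondrially encoded genes Calm2 was at 0.0201. The 3 shares kept their direction. Each difference stayed within 1 SD of the reported one, the SD being the larger of those of the library shares in WT and mKO. That SD was 9.14 points for the regulatory share, 4.67 for the essential share and 1.43 for the Mylk2 share, so this is a loose limit. The share of the kinases in recovered reads was not run, since Mylk4 had none. Depth limits Mylk3 most.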

Other observations

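There were 1.31, 1.31 and 1.35 Mylpf transcripts per Myl1 transcript in the WT libraries and 1.24, 1.16 and 1.29 in the mKO libraries. These did not overlap, but mKO replicate 3 nearly met the lowest WT library, and the 95% intervals of the changes of Mylpf and Myl1 overlapped widely. Over all members, essential chains outnumbered regulatory chains by 1.204, 1.213 and 1.210 in WT and by 1.16, 1.10 and 1.15 in mKO, also without overlap. Mylpf per transcript of its kinase gene Mylk2 was 19.9 ± 1.32 in WT libraries and 17.7 ± 1.58 in mKO libraries (SD, n = 3 each), and these ratios overlapped. The ratios were computed after the values were seen and were given no test.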
